A study of Mus musculus with 23 samples.

Results

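Gene expression was compared between melanoma tumors of mice treated by intratumoral (IT) injection and tumors of mice treated by intraperitoneal (IP) injection, with the drug group held constant. The members were all 23 of the 23 sequenced tumors, 15 labelled IT and 8 labelled IP. The tumors were B16-F1 melanomas, a mouse melanoma cell line, grown under the skin of DBA/2J mice that were between 6 and 8 weeks old. All mice carried the same implanted line, and the labels name no engineered allele. CONTROL_IP received saline and CONTROL_IT received DMSO. PTX_IP and PTX_IT received pentoxifylline (PTX), a methylxanthine phosphodiesterase inhibitor, at 60 mg/kg. NCTD_IP and NCTD_IT received norcantharidin (NCTD), a demethylated cantharidin, at 3 mg/kg, and MIX_IP and MIX_IT received both drugs at those doses. Each IP group held 2 tumors. CONTROL_IT, NCTD_IT and MIX_IT held 4 tumors each and PTX_IT held 3.

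The study's methods state that the drugs were dissolved in saline for the IP route and in DMSO for the IT route, and in the labels the batch field repeats the route. Route, vehicle and batch were therefore a single factor in every comparison below and cannot be told apart. With PTX and with NCTD, the sex-linked genes Xist and Ddx3y also divided the tumors by route, so sex cannot be told apart from route there. The drug-adjusted difference draws on these groups as well. The line and the host strain were also the same on both sides, so a single tumor model stands behind all values.

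An intraperitoneal dose is taken up into the circulation and reaches a tumor under the skin through its vessels, whereas an intratumoral dose is placed into the tissue by a needle. An IT tumor receives the needle and the solvent whether or not a drug is present, which is why the vehicle controls of both routes are set beside the drug-adjusted difference. A bulk tumor holds pigment-producing melanoma cells together with vessels, fibroblasts and immune cells of the host. In RNA from whole tumors, fewer cells of a type and less RNA per cell cannot be told apart.

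Values of a gene are given in CPM (counts per 1000000 counts, with library sizes scaled by TMM), and differences are log2 differences of IT minus IP from edgeR's quasi-likelihood test. A gene was called at a Benjamini-Hochberg adjusted p below 0.05 over all 13395 genes tested. Total counts per tumor ran from 3533893 to 6702374 in the IP tumors and from 2861578 to 6559840 in the IT tumors, with no difference by route past the test (exact permutation p = 0.371 within drug groups). The IT tumors had fewer genes with at least 1 count, 15369 to 16808 against 16086 to 18043, a drug-adjusted difference of -794 genes (two-sided exact permutation test within drug groups, p = 0.00468, adjusted p = 0.0187 over 4 library measures). At a common depth of 2861578 counts per tumor, a comparison added after seeing the data, the difference was -506 genes (exact permutation p = 0.00658). The melanocyte markers identified the tissue on both sides, with a summed level of 29734 to 40449 CPM in the IP tumors and 18107 to 34900 CPM in the IT tumors.

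Few genes were called between the routes, and most of those called differed by less than 2-fold. Of 13395 genes, 49 were called (0.366%), 32 higher in the IT tumors (0.239%) and 17 lower (0.127%). Their absolute log2 differences ran from 0.36 to 3.49 with a median of 0.61, and 4 reached 1, namely Scand1 and Mapk12 upward and Actn4 and Wfs1 downward. The log2 difference had the same sign in all 4 drug groups for all 49 genes, which were chosen by their difference over these same tumors, so that the shared sign is no independent support. No gene separated the routes completely, since 0 genes had all 15 IT values above all 8 IP values (0%) and 0 had all 15 below (0%). At an unadjusted p below 0.05 there were 982 higher and 823 lower genes, together 1805 or 13.5% of the genes tested (edgeR). The median log2 difference over all genes was -0.01.

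The count of 49 at the threshold changed with single tumors and with the model. The sign of the log2 difference stayed the same for all 49 genes in each of the 23 fits with 1 tumor left out. These genes were chosen from the same tumors, so the kept sign is no independent support. Fits without an IP tumor left 1 tumor in its group and tested 14494 to 14571 genes, against 13395 with all tumors. Without 1 tumor it was 1 (MIX_IP replicate 8), 9 (MIX_IP replicate 7), 11 (NCTD_IP replicate 5), 14 (NCTD_IP replicate 6), 20 (PTX_IT replicate 15), 21 (NCTD_IT replicate 19), 24 (PTX_IP replicate 3 and NCTD_IT replicate 17), 25 (MIX_IT replicate 21), 26 (CONTROL_IT replicate 9), 29 (NCTD_IT replicate 18) or 78 (MIX_IT replicate 23). With Xist (on the log2 CPM scale) added to the model, or in the CONTROL and MIX tumors alone, a fit added after seeing the data, 1 gene was called, and in each of these fits that gene was Scand1. In both of them all 49 genes kept their sign with an unadjusted p below 0.05 (edgeR). DESeq2 called 283 genes, 184 higher and 99 lower, among them 46 of the 49. In the 23 fits with 1 tumor left out, Scand1 was called in 23 and Rassf2, Ralb, Ctnnbip1, Dnmt1, Minpp1, Idh1 and Map1b in 22, the exception being the fit without MIX_IP replicate 8. Tpm1 and Vps33b were called in 21 of them, Mmp14 in 16, Ier2 in 11 and Mapk12 in 9.

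Scand1, which encodes a small protein with a SCAN domain, the module through which a family of zinc finger factors pair with each other, showed the largest route difference of the called genes. It lies on chromosome 2 from 156153766 to 156154667 on the minus strand (GRCm39, ENSMUSG00000046229). In CONTROL_IP it was at 0.582 and 5.11 CPM, in PTX_IP at 1.497 and 1.529 CPM, in NCTD_IP at 1.96 and 19.3 CPM, and in MIX_IP at 4.17 and 4.49 CPM. In CONTROL_IT it was at 27.6, 54.1, 66.8 and 48.9 CPM, and in PTX_IT at 43.5, 29.3 and 13.1 CPM. In NCTD_IT it was at 26.8, 58.7, 52.9 and 85.1 CPM, and in MIX_IT at 53.3, 80.1, 46.1 and 80.3 CPM. A single IT tumor, PTX_IT replicate 16, lay below the highest IP tumor, NCTD_IP replicate 6, and the other 14 lay above all 8 IP tumors. The drug-adjusted log2 difference was 3.49 ± 0.39 (SE), 11.2-fold, with an adjusted p of 7.43e-05 by edgeR's quasi-likelihood test.

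By drug, the log2 difference of Scand1 was 4.04 in the controls, 4.22 with PTX, 2.36 with NCTD and 3.90 with MIX. In counts the gene ran from 3 to 81 in the IP tumors and from 51 to 513 in the IT tumors, so the lowest IP tumor stood at the floor of 3 counts. It was called in every alternative fit, with log2 differences between 3.29 and 4.13. Its locus overlaps Cnbd2 on the opposite strand, which had 0 to 13 counts in any tumor, and the strand setting of the counting was not stated.

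**Figure D1:**
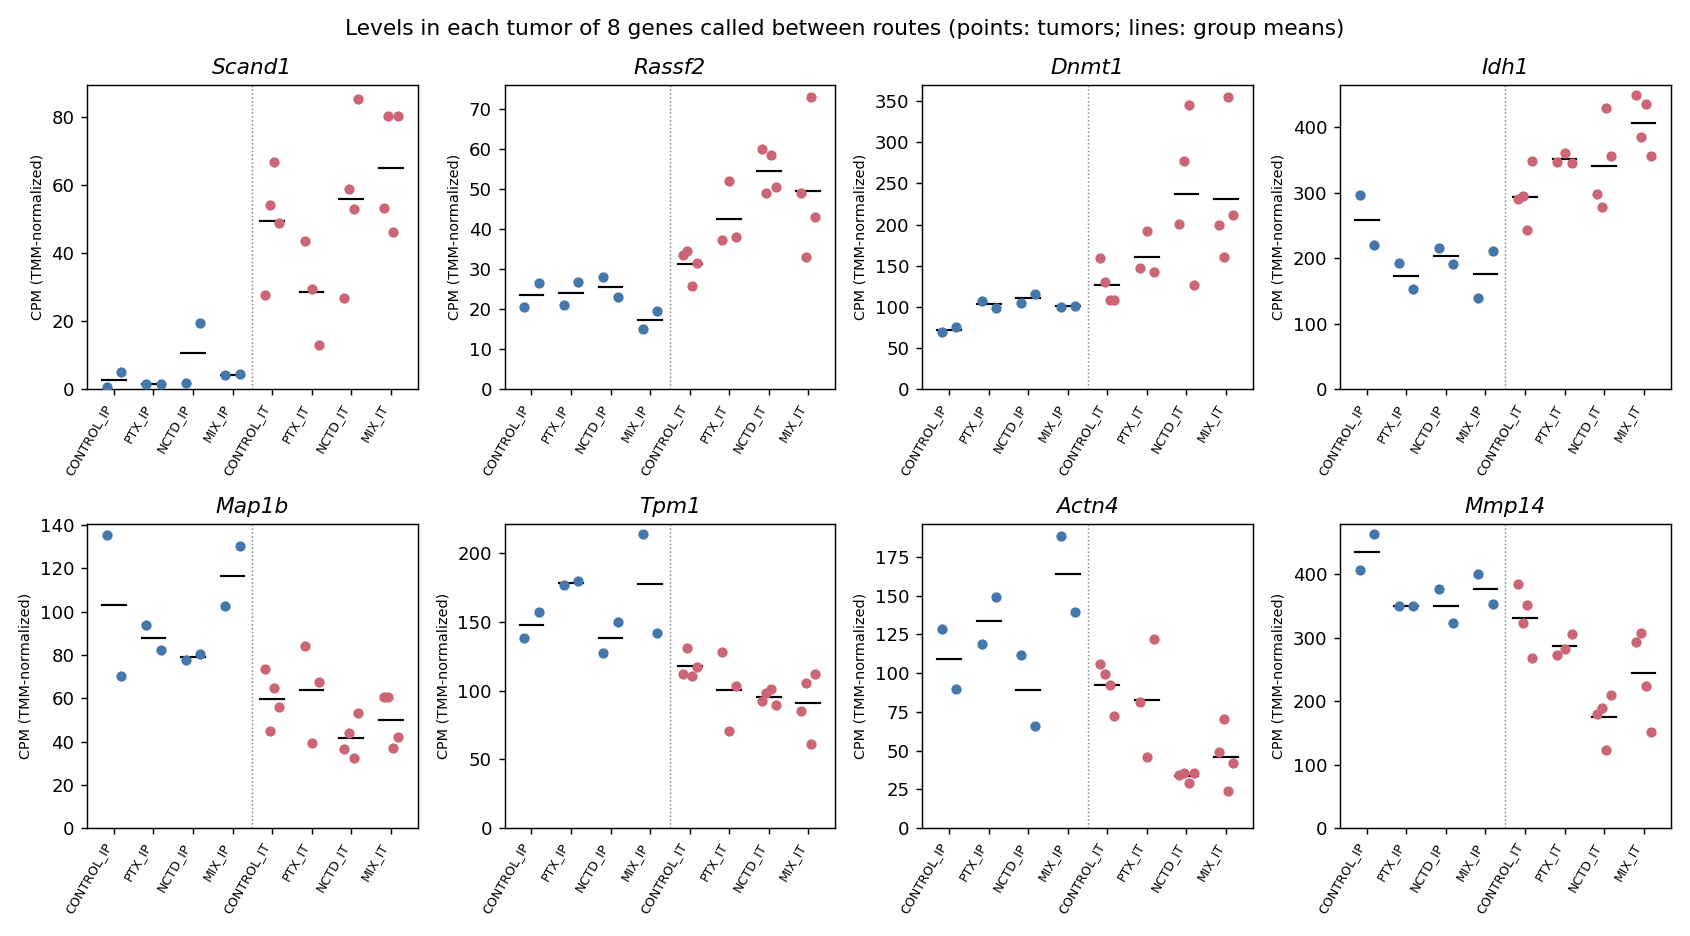
Each panel plots the TMM-normalized CPM of a gene in every tumor (points) and the mean of each group (lines), with the 4 IP groups in blue and the 4 IT groups in red. Scand1 was at 0.582 to 19.3 CPM in the IP tumors and 13.1 to 85.1 CPM in the IT tumors, while the other 7 genes shifted by smaller steps with some overlap.

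The genes higher in the IT tumors are given by the known roles of their products, an ordering made after they were called. Rassf2, a Ras-association domain protein counted among tumor suppressors, was at 15.1 to 28.0 CPM in the IP tumors (median 22.01) and 25.7 to 73.1 CPM in the IT tumors (median 43.0). Only 1 IT tumor lay within the IP range, and the log2 difference was 0.94 ± 0.15 (adjusted p = 0.00987, edgeR). Ralb, a small GTPase downstream of Ras, was at 61.1 to 113 CPM (median 80.6) and 76.1 to 180 CPM (median 146). Its log2 difference was 0.71 ± 0.12 (adjusted p = 0.00987, edgeR), and 10 of the 15 IT tumors exceeded the highest IP tumor. Ctnnbip1, which binds β-catenin and blocks its pairing with TCF factors, was at 9.61 to 18.3 CPM (median 13.8) and 16.9 to 42.3 CPM (median 24.4). The log2 difference of Ctnnbip1 was 0.97 ± 0.16 (adjusted p = 0.00987, edgeR), with 13 IT tumors above the IP range.

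Among chromatin regulators, Dnmt1, the maintenance DNA methyltransferase, was at 69.5 to 116 CPM in the IP tumors (median 101) and 108 to 355 CPM in the IT tumors (median 160). The groups overlapped in 2 IT tumors, and the log2 difference was 0.94 ± 0.16 (adjusted p = 0.00987, edgeR). Smarcd1, a subunit of the SWI/SNF remodeling complex, was at 50.4 to 67.5 CPM and 59.3 to 123 CPM, with a log2 difference of 0.61 ± 0.11 (adjusted p = 0.0149, edgeR). For Smarcd1, 14 of the 15 IT tumors stood above every IP tumor.

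Among metabolic enzymes, Idh1, the cytosolic isocitrate dehydrogenase that makes NADPH, was at 140 to 297 CPM (median 202) in the IP tumors and 243 to 449 CPM (median 348) in the IT tumors. Its log2 difference was 0.77 ± 0.13 (adjusted p = 0.00987, edgeR). The separation of Idh1 was uneven, with 0.19 in the controls against 1.02 with PTX, 0.74 with NCTD and 1.21 with MIX. Minpp1, an inositol polyphosphate phosphatase, was at 13.8 to 20.9 CPM and 20.4 to 38.2 CPM, and rose by 0.63 ± 0.11 on the log2 scale (adjusted p = 0.00987, edgeR). Oard1, which removes ADP-ribose from proteins, was at 25.8 to 38.2 CPM and 28.9 to 85.2 CPM, with a log2 difference of 0.79 ± 0.15 (adjusted p = 0.0183, edgeR). Adipor1, the adiponectin receptor, differed by 0.48 ± 0.09 (adjusted p = 0.0149, edgeR).

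The immediate early gene Ier2 was at 30.7 to 62.3 CPM in the IP tumors and 48.9 to 135 CPM in the IT tumors, with a log2 difference of 0.59 ± 0.13 (adjusted p = 0.0422, edgeR). It was the 1 called member of 11 tested immediate early genes, whose median log2 difference was -0.11, where 0.239% of all genes were called higher. The other 21 higher genes had log2 differences between 0.42 and 1.25 and were named after their values were seen. They included Tsfm, Ryk, Rps12-ps9, Oaz1, Arfgef3, Atp13a3, Mapk12, Trim8, Rassf3, Gm5963, Tmed2, Sec63, Clstn1, Cirbp, Eif2s3x, Ankrd28, Mfsd1, Cab39, Tuba1c and Zfand6. Mapk12, the p38γ kinase, had the second largest difference of all called genes, 1.25 ± 0.27, at 2.61 to 10.7 CPM and 4.50 to 22.9 CPM. Rps12-ps9 and Gm5963 are processed pseudogenes, whose reads may be shared with near-identical copies.

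The genes lower in the IT tumors are ordered in the same way. Map1b, which binds microtubules, was at 70.3 to 136 CPM in the IP tumors (median 88.1) and 32.5 to 84.2 CPM in the IT tumors (median 53.3). It fell by 0.87 ± 0.15 on the log2 scale (adjusted p = 0.00987, edgeR), and 13 of the 15 IT tumors lay below every IP tumor. Tpm1, a tropomyosin of actin filaments, was at 127 to 214 CPM (median 154) and 60.9 to 131 CPM (median 104). Its log2 difference was -0.67 ± 0.12 (adjusted p = 0.0149, edgeR), again with 13 IT tumors below the IP range. Actn4, which cross-links actin, was at 66.1 to 188 CPM (median 124) and 23.8 to 122 CPM (median 48.8).

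Actn4 had the largest fall, -1.08 ± 0.21 (adjusted p = 0.0183, edgeR), but only 8 IT tumors lay below the IP range, and its difference by drug ran from -0.24 in the controls to -0.69 with PTX, -1.39 with NCTD and -1.82 with MIX. Myo10, the myosin of filopodia, was at 129 to 169 CPM and 68.9 to 151 CPM, with a log2 difference of -0.49 ± 0.10 (adjusted p = 0.0234, edgeR). Vps33b, needed for the fusion of endosomal vesicles, was at 14.9 to 32.0 CPM and 5.83 to 22.1 CPM, with -0.84 ± 0.15 (adjusted p = 0.0149, edgeR). Rab6a, a GTPase of the Golgi, differed by -0.36 ± 0.07 (adjusted p = 0.0352, edgeR), and Smap1, which switches off Arf GTPases, by -0.52 ± 0.10 (adjusted p = 0.0172, edgeR).

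Eif5b, which joins the ribosomal subunits at the start of translation, was at 271 to 382 CPM in the IP tumors (median 329) and 115 to 317 CPM in the IT tumors (median 209). It fell by 0.65 ± 0.12 on the log2 scale (adjusted p = 0.0149, edgeR). Tent5a, a poly(A) polymerase, was at 62.2 to 106 CPM and 22.3 to 72.5 CPM, and Wfs1, a membrane protein of the endoplasmic reticulum, at 9.241 to 18.003 CPM and 2.77 to 10.8 CPM. Their log2 differences were -0.73 ± 0.15 and -1.03 ± 0.21 (both adjusted p = 0.0352, edgeR). Mmp14, a membrane-bound matrix metalloproteinase, was at 322 to 463 CPM (median 365) and 123 to 385 CPM (median 272). It fell by 0.59 ± 0.12 (adjusted p = 0.0395, edgeR) and was the 1 called member of 9 tested metalloproteinases and inhibitors, whose median log2 difference was 0.01, where 0.127% of all genes were called lower. The other 6 lower genes, named after their values were seen, were Dnajc1, Bnc2, Kif3a, Rapgef4, Gpx8 and Ncor1, with log2 differences between -0.36 and -0.64. Of the 49 genes, 7 overlap a gene on the opposite strand whose highest count exceeds 0.1 of their own lowest count, namely Dnajc1, Eif5b, Ncor1, Rab6a, Rps12-ps9, Scand1 and Smarcd1.

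**Figure D2:**
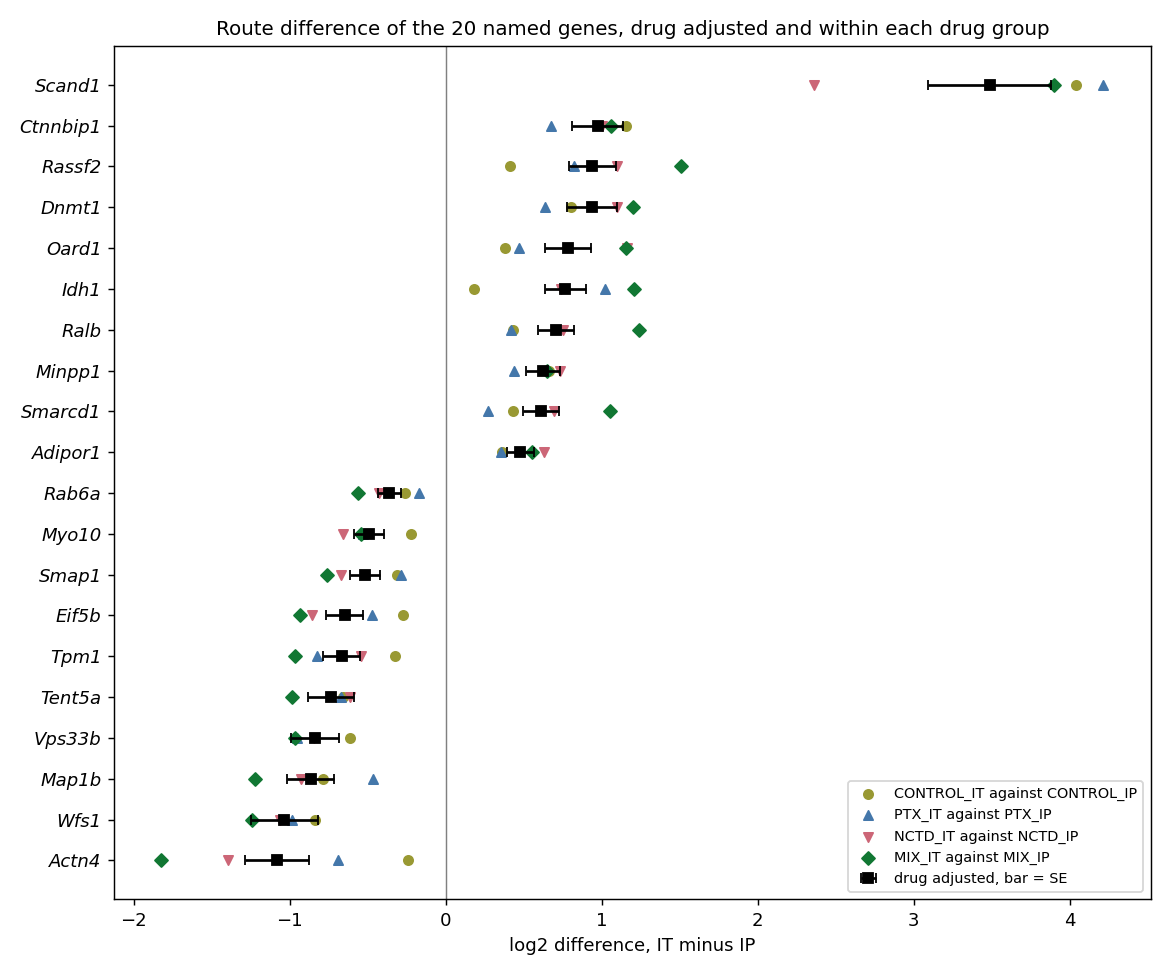
The log2 difference of IT minus IP is plotted for the 10 named genes of each direction, as the drug-adjusted value (black squares, bars are SE) and within each drug group (colored symbols). All points of a gene lie on 1 side of 0, from -1.82 for Actn4 with MIX to 4.22 for Scand1 with PTX.

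Within single drug groups, few of these differences passed the test, and the size of the difference varied between groups. For the 49 genes the median absolute log2 difference was 0.40 in the controls, 0.47 with PTX, 0.73 with NCTD and 0.90 with MIX. MIX gave the largest of the 4 differences for 29 genes and NCTD for 15, while the controls gave the smallest for 25. A test of whether the route difference varied with the drug called 0 of 13395 genes (0%), with 810 at an unadjusted p below 0.05 and a smallest adjusted p of 0.206 (edgeR), while the likelihood ratio test of DESeq2 called 6. For the 49 genes the smallest adjusted p of this test was 0.802.

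MIX_IT against MIX_IP called 2 genes (0.0149%), Alg9 and Ralb. Alg9, a mannosyltransferase of N-glycan assembly that was chosen after its values were seen, was at 17.2 and 17.7 CPM in MIX_IP and at 47.7, 39.6, 53.6 and 48.1 CPM in MIX_IT. The log2 difference of Alg9 was 1.44 ± 0.20 (adjusted p = 0.00615, edgeR). Over all drugs its log2 difference was 0.61 ± 0.14 (adjusted p = 0.0541, edgeR) and in the controls 0.02. Ralb was at 61.1 and 67.0 CPM in MIX_IP and at 146, 135, 177 and 149 CPM in MIX_IT, a log2 difference of 1.24 ± 0.20 (adjusted p = 0.0208, edgeR).

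NCTD_IT against NCTD_IP called 1 gene (0.00747%), the Y-linked Ddx3y, which was at 7.28 and 14.1 CPM in NCTD_IP, at 0 in 3 NCTD_IT tumors and at 0.294 CPM in the other (adjusted p = 0.0499, edgeR). PTX_IT against PTX_IP called 0 genes (0%), with 535 at an unadjusted p below 0.05 (edgeR). DESeq2 called 4 genes with PTX, 73 with NCTD and 131 with MIX. Leaving out 1 tumor moved the MIX count between 0 (MIX_IP replicate 8) and 19 (MIX_IT replicate 22), with 13 without PTX_IT replicate 16, 8 without either CONTROL_IP tumor, 5 without either NCTD_IP tumor, 4 without either PTX_IP tumor or PTX_IT replicate 15, and 1 without MIX_IP replicate 7 or MIX_IT replicates 21, 23 or 24. The NCTD count was 0 in 18 of the 23 fits, 1 without CONTROL_IP replicates 1 or 2 or CONTROL_IT replicates 9 or 10, and 2 without MIX_IT replicate 23.

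CONTROL_IT against CONTROL_IP compared the DMSO and saline vehicles, each given by its own route with no drug. Sex was not balanced either, since 1 of 2 CONTROL_IP tumors and 0 of 4 CONTROL_IT tumors had Xist at or above 1 CPM. No gene was called (0 of 13395, 0%, edgeR), with 648 at an unadjusted p below 0.05 and a smallest adjusted p of 0.1003. DESeq2 called 3 genes, Scand1, Gm10076 and Gm5805, all higher in CONTROL_IT. All 49 route genes had the same sign in the controls as over all drugs, to which the controls contributed, and 19 had an unadjusted p below 0.05 there. Scand1 was at 0.582 and 5.11 CPM against 27.6 to 66.8 CPM, with a log2 difference of 4.04 ± 0.77 (adjusted p = 0.238, edgeR).

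The other genes named upward in the controls, by smallest p, were predicted genes and ribosomal pseudogenes. Gm10076, annotated as a long non-coding RNA, was at 483 and 432 CPM in CONTROL_IP and 1139, 888, 1061 and 1075 CPM in CONTROL_IT, a log2 difference of 1.18 ± 0.20 (adjusted p = 0.1003, edgeR). Gm5805 was at 524 and 414 CPM against 721 to 843 CPM, Rps18-ps3 at 29.7 and 12.0 CPM against 38.9 to 214 CPM, and Rpl36-ps2 at 575 and 416 CPM against 802 to 986 CPM. In all of them each CONTROL_IT tumor exceeded both CONTROL_IP tumors, but these genes were chosen by their smallest p in the control comparison. The share of all genes with such a separation was not counted. Over all drugs, the log2 differences of Gm10076, Gm5805 and Rps18-ps3 were 0.31, 0.20 and 0.49, and none passed the test (adjusted p = 0.383, 0.375 and 0.767, edgeR).

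Downward, Gxylt2, a xylosyltransferase, was at 129 and 117 CPM in CONTROL_IP and 54.3 to 69.3 CPM in CONTROL_IT (log2 difference -1.04 ± 0.24, adjusted p = 0.956, edgeR). Atp11a, a phospholipid flippase, was at 260 and 242 CPM against 144 to 170 CPM, and Igip at 31.3 and 34.0 CPM against 14.7 to 21.9 CPM. Hoxc8, a homeobox gene of the body axis, had 20 and 13 counts in CONTROL_IP, 0 in 3 CONTROL_IT tumors and 1 in the fourth. Podn, a small leucine-rich proteoglycan, had 21 and 7 counts in CONTROL_IP and 0 in all 4 CONTROL_IT tumors. All 5 genes had the same adjusted p of 0.956 (edgeR). They were chosen by their smallest p in the control comparison, so that their lack of overlap between the 2 control groups is no independent support. The share of all genes without such overlap was not counted. Counts were also simulated for the same tumors, with no difference by drug or sex. In them, 58.1% of genes changed by 2 on the log2 scale were recovered in the control comparison and 3.57% of those changed by 1. For the drug-adjusted comparison these shares were 87.9% and 62.8%.

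None of 16 tested melanocyte genes was called (3 higher and 4 lower at an unadjusted p below 0.05, median log2 difference -0.19 against -0.01 over all genes). At that threshold 982 of all 13395 genes were higher and 823 lower (edgeR). Mc1r, the melanocortin receptor, was at 413 to 612 CPM in the IP tumors and 425 to 982 CPM in the IT tumors, a log2 difference of 0.39 ± 0.10 (adjusted p = 0.0783, edgeR). Tyr, the tyrosinase that starts melanin synthesis, was at 421 to 773 CPM and 638 to 1084 CPM, with 0.40 ± 0.11 (adjusted p = 0.105, edgeR). Dct, which acts later in the same pathway, was at 12695 to 20131 CPM and 7368 to 18097 CPM, with -0.31 ± 0.10 (adjusted p = 0.176, edgeR), and Tyrp1 at 3231 to 5015 CPM and 2163 to 3797 CPM, with -0.33 ± 0.11 (adjusted p = 0.187, edgeR). The ranges of both routes overlapped for all 4 genes.

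Glycolysis and hypoxia genes gave negative differences without a call. Of 13 glycolysis genes, 12 had a negative log2 difference, 5 with an unadjusted p below 0.05, and the median was -0.30. At that threshold 823 of all 13395 genes were lower (edgeR). Tpi1, triose phosphate isomerase, was at 1550 to 2367 CPM and 774 to 2377 CPM, with a log2 difference of -0.36 ± 0.14 (adjusted p = 0.239, edgeR). Of 15 hypoxia genes, 13 had a negative difference, with a median of -0.24. Car9, a carbonic anhydrase induced by low oxygen, was at 147 to 203 CPM in the IP tumors (median 174) and 9.22 to 175 CPM in the IT tumors (median 89.7), a log2 difference of -0.98 ± 0.26 (adjusted p = 0.0962, edgeR). For Car9, 12 IT tumors lay below every IP tumor, and the difference was called with DESeq2, with limma-voom, with no filter, and without MIX_IT replicate 23 (log2 difference -0.87, adjusted p = 0.0288, edgeR).

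By drug, the median log2 difference of glycolysis genes was 0.35 in the controls, -0.24 with PTX, -0.62 with NCTD and -0.55 with MIX. That of hypoxia genes was 0.15 in the controls, -0.05 with PTX, -0.25 with NCTD and -0.77 with MIX. Adm, the vasodilator peptide adrenomedullin, had log2 differences of 0.25 in the controls, -1.15 with PTX, -1.52 with NCTD and -1.12 with MIX. MIX_IT replicate 23 had the lowest level of Car9 and Adm of all tumors, 9.22 and 6.31 CPM. The difference between drugs did not pass the test for any gene of these lists, since that test called 0 genes.

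**Figure D3:**
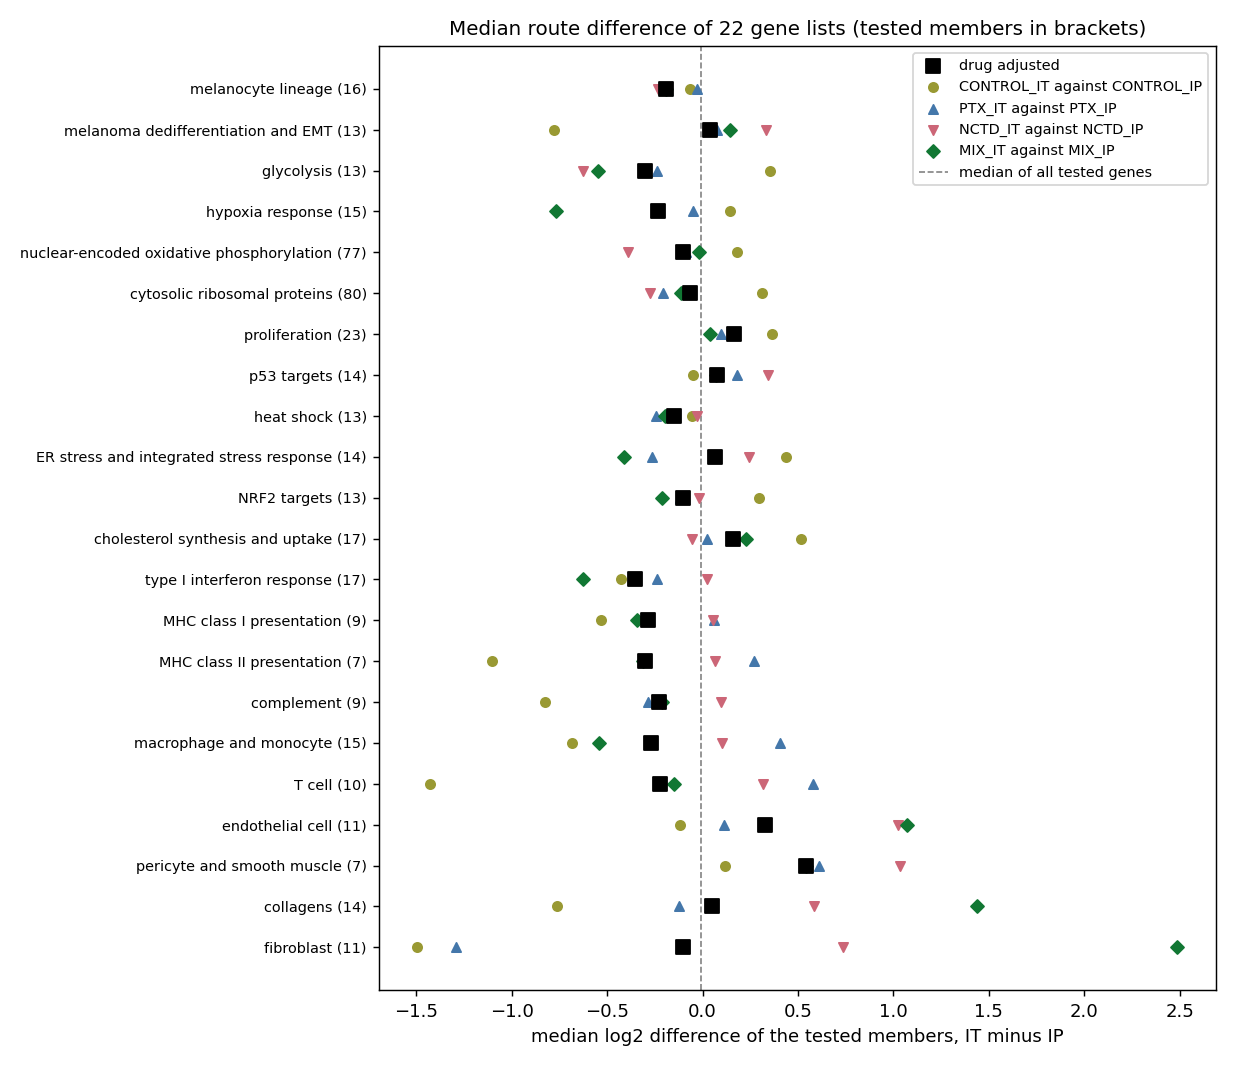
The median log2 difference (IT minus IP) of the tested members of 22 gene lists is shown over all drugs (black squares) and within each drug group (colored symbols), with the median of all genes, -0.01, as a dashed line. Glycolysis ran from -0.62 with NCTD to 0.35 in the controls, and fibroblast genes from -1.49 in the controls to 2.49 with MIX.

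Of 23 proliferation genes, 20 had a positive log2 difference and 3 an unadjusted p below 0.05, with a median of 0.17 and no call. At that threshold 982 of all 13395 genes were higher (edgeR). Cdk1, the mitotic kinase, was at 178 to 429 CPM in the IP tumors and 231 to 838 CPM in the IT tumors (0.57 ± 0.19, adjusted p = 0.183, edgeR). Plk1, which acts at the same stage, was at 35.9 to 87.2 CPM and 50.4 to 142 CPM (0.40 ± 0.16, adjusted p = 0.262, edgeR). Among 80 tested ribosomal protein genes 54 had a negative difference with a median of -0.07, while in the controls alone their median was 0.31 and 15 were higher at an unadjusted p below 0.05. Of all 13395 genes, 296 were higher in the controls at that threshold (edgeR). Among 77 nuclear genes of oxidative phosphorylation 53 had a negative difference with a median of -0.10. The 7 genes of the ERBB, RAF and PI3K/AKT/mTOR proteins that the study stained, Erbb2, Braf, Pik3ca, Akt1 and Mtor among them, had 0 calls and a median of 0.05, and the 13 tested target family genes of PTX and NCTD, phosphodiesterases, adenosine receptors and protein phosphatases, had 0 calls and a median of -0.04.

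Immune lists also had no called member by route. Of 17 type I interferon genes, 16 had a negative difference with a median of -0.35. That median was -0.43 in the controls, -0.24 with PTX, 0.03 with NCTD and -0.62 with MIX. Usp18, which restrains interferon signaling, was at 48.3 to 76.8 CPM in the IP tumors and 7.28 to 73.8 CPM in the IT tumors (-0.69 ± 0.27, adjusted p = 0.248, edgeR), and Ifit1 at 134 to 355 CPM and 39.1 to 262 CPM (-0.67 ± 0.27, adjusted p = 0.271, edgeR). All 7 MHC class II genes and all 9 tested complement genes had negative differences over all drugs, with medians of -0.30 and -0.23. The sign was not shared by all drug groups. The class II median was -1.11 in the controls, 0.27 with PTX, 0.07 with NCTD and -0.31 with MIX. For complement it was -0.82 in the controls, -0.29 with PTX, 0.10 with NCTD and -0.21 with MIX. Of 15 macrophage and monocyte genes 11 were negative, with a median of -0.27. Within drug groups this median was -0.69 in the controls, 0.40 with PTX, 0.10 with NCTD and -0.54 with MIX. Lyz2, the lysozyme of myeloid cells, was at 143 to 870 CPM and 91.2 to 481 CPM (-0.94 ± 0.28, adjusted p = 0.132, edgeR). The spread within the IT groups was wide, since the summed MHC class II genes ran from 71.4 to 6998 CPM in the IT tumors against 370 to 4926 CPM in the IP tumors.

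The neutrophil genes stood out in 1 tumor. Their summed level was 17.1 to 63.0 CPM in the IP tumors and 10.0 to 87.8 CPM in 14 IT tumors, but 1294 CPM in NCTD_IT replicate 18. S100a9, a calcium-binding protein of neutrophils, was at 758 CPM there and at most 25.6 CPM in any other tumor. The collagen and fibroblast lists stood out in MIX_IT replicate 23, with summed levels of 10051 and 8903 CPM against at most 2319 and 2057 CPM in the other 22 tumors. The median log2 difference of 11 tested fibroblast genes ran from -1.49 in the controls to 2.49 with MIX, and that of 14 collagens from -0.76 to 1.44, with -0.10 and 0.05 over all drugs. The part of that tumor in these medians was not tested.

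**Figure D4:**
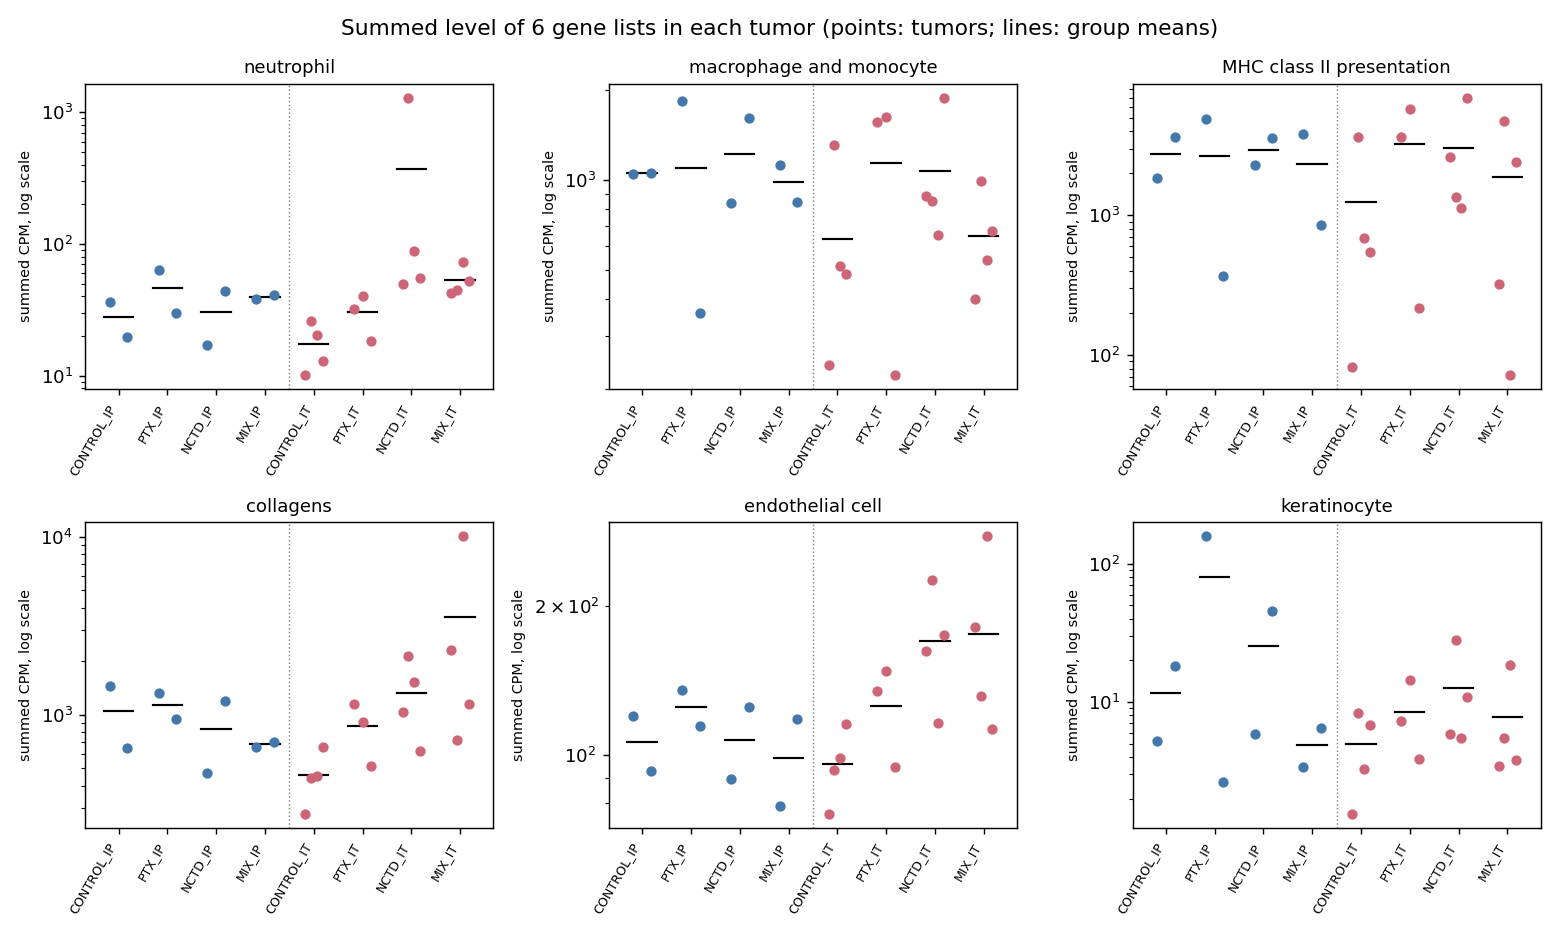
The summed CPM of 6 gene lists is plotted on a log scale for every tumor (points), with group means (lines), IP groups in blue and IT groups in red. NCTD_IT replicate 18 reached 1294 CPM of neutrophil genes and MIX_IT replicate 23 reached 10051 CPM of collagens, while the remaining tumors of both routes overlapped.

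Markers of other tissues that a dissected tumor can carry varied between tumors of the same group. All 7 tested keratinocyte genes had negative differences over all drugs. By drug, their median log2 difference was -2.56 in the controls, -5.65 with PTX, -1.26 with NCTD and 1.31 with MIX. Their summed level was 2.62 to 158 CPM in the IP tumors and 1.54 to 28.2 CPM in the IT tumors, and 158 CPM was reached by PTX_IP replicate 3 alone. Krt5, a keratin of basal skin cells, was at 35.8 CPM in that tumor and at most 10.0 CPM in all others, and its log2 difference was called without MIX_IT replicate 23 (-4.21, adjusted p = 0.0470, edgeR). The summed skeletal muscle genes were at 5.05 to 120 CPM in the IP tumors (median 62.3) and 6.18 to 286 CPM in the IT tumors (median 25.2). NCTD_IT replicate 18 was highest, and Acta1, the actin of skeletal muscle, made up 205 CPM of its sum. Myh4, a myosin of fast muscle fibers, was at 0 to 19.8 CPM and 0 to 5.29 CPM (adjusted p = 0.0607, edgeR), and was called without PTX_IP replicate 4 (adjusted p = 0.0403, edgeR) or NCTD_IT replicate 18 (adjusted p = 0.0237, edgeR). The summed adipocyte genes were at 32.9 to 164 CPM in the IP tumors (median 69.9) and 69.0 to 521 CPM in the IT tumors (median 134), with the highest sum in MIX_IT replicate 23. Fabp4, a fatty acid carrier of fat and capillary cells, was at 32.9 to 160 CPM and 67.9 to 520 CPM (0.92 ± 0.32, adjusted p = 0.201, edgeR), and Cdh5, the cadherin of vessel walls, at 8.09 to 24.3 CPM and 9.01 to 103 CPM (0.87 ± 0.31, adjusted p = 0.217, edgeR). Of 11 tested endothelial genes 8 had a positive difference, with a median of 0.33 over all drugs, -0.12 in the controls, 0.11 with PTX, 1.03 with NCTD and 1.07 with MIX. The highest levels of Cdh5 and Fabp4 were both in MIX_IT replicate 23, the tumor with the highest collagen sum, and its part in these medians was not tested. Mast cell and Schwann cell lists had 0 tested members.

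Further lists gave 0 calls as well. Of 13 heat shock genes 10 were negative with a median of -0.15, and Dnajb1, a co-chaperone, was at 58.5 to 84.9 CPM and 31.3 to 86.8 CPM (-0.50 ± 0.15, adjusted p = 0.130, edgeR). Of 17 cholesterol genes 14 were positive with a median of 0.16. The 13 NRF2 target genes had a median of -0.10, with Prdx1, a peroxiredoxin, at 1774 to 2300 CPM and 1832 to 3201 CPM (0.27 ± 0.09, adjusted p = 0.181, edgeR). Among 13 dedifferentiation genes 8 had a positive difference and 5 a negative one, with a median of 0.04, and the pair with the smallest p was negative. Vim, vimentin, was at 4418 to 6993 CPM and 2604 to 5907 CPM (-0.38 ± 0.14, adjusted p = 0.218, edgeR), and Sox9 at 28.0 to 75.8 CPM and 11.9 to 65.9 CPM (-0.61 ± 0.25, adjusted p = 0.269, edgeR). Malat1, a nuclear RNA, was at 69.5 to 178 CPM and 74.2 to 693 CPM, with -0.59 in the controls and 1.95 with NCTD, and the 4 tested nuclear retained RNAs had a median of 0.32.

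Xist and Ddx3y divided the tumors by group. The study's methods state that groups were matched for sex. Xist, the RNA that silences an X chromosome in female cells, was at or above 1 CPM in 1 of 8 IP tumors (CONTROL_IP replicate 2, 8.26 CPM) and in 7 of 15 IT tumors, namely all 3 PTX_IT and all 4 NCTD_IT tumors at 1.28 to 13.6 CPM. In the other 8 IT tumors it was at most 0.566 CPM and in the other 7 IP tumors at 0. Ddx3y, a Y-linked helicase, was at or above 1 CPM in the same 8 IT tumors without Xist and in the 7 IP tumors without it. With PTX and with NCTD, every IP tumor had Ddx3y without Xist and every IT tumor Xist without Ddx3y at this threshold. A route difference in those drug groups cannot be told apart from a difference by sex. Among the 49 genes only Eif2s3x lies on the X chromosome, at 88.5 to 131 CPM in the IP tumors and 90.2 to 259 CPM in the IT tumors, and its difference was 0.18 in the controls, 0.36 with PTX, 1.00 with NCTD and 0.83 with MIX.

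**Figure D5:**
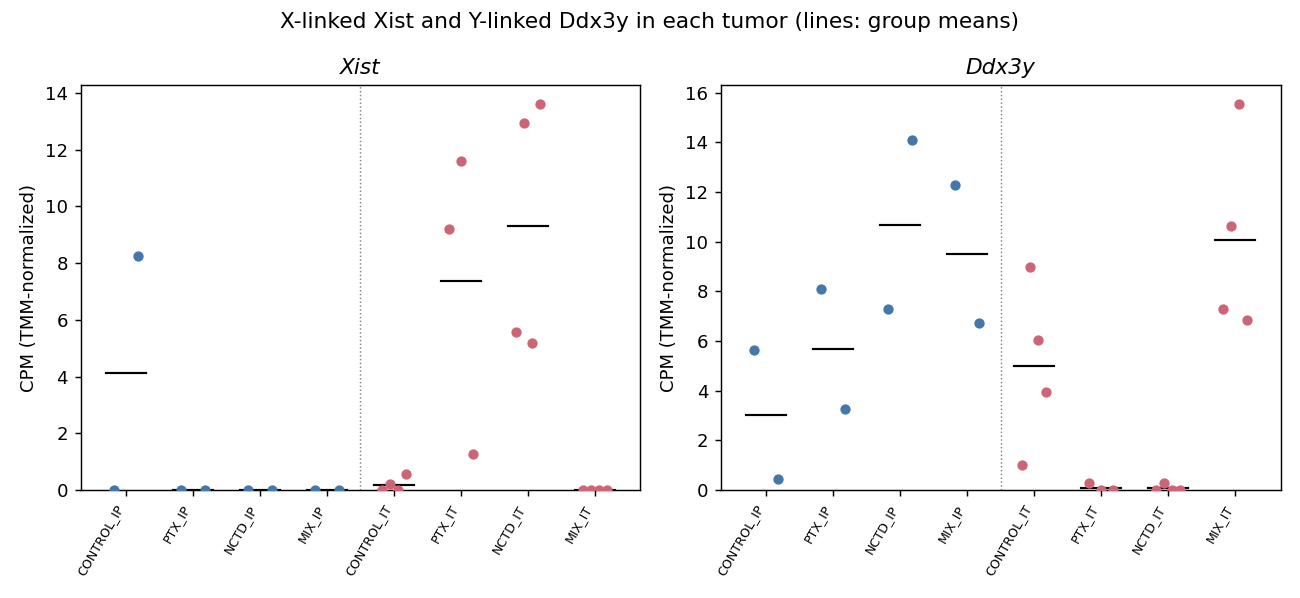
TMM-normalized CPM of X-linked Xist and Y-linked Ddx3y in every tumor (points) with group means (lines), IP groups in blue and IT groups in red. Xist reached 1.28 to 13.6 CPM in all PTX_IT and NCTD_IT tumors and 8.26 CPM in 1 CONTROL_IP tumor, and the tumors with Xist had less than 1 CPM of Ddx3y.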

How the data were processed

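For 23 tumors, 3′ mRNA libraries were sequenced. The reads were trimmed by Trimmomatic and aligned by STAR 2.7.11b against GRCm39, and the authors deposited raw counts of reads per gene for 56748 genes, of which 27684 had no count. The strand setting, the handling of multiply aligned reads and molecular identifiers were not given in the sources used here.

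Tumors were grouped by their labels. Counts were analysed with edgeR 4.0.16 (filterByExpr, minimum count 10 and minimum total 15, TMM, glmQLFit and glmQLFTest) in R 4.3.3, with DESeq2 1.42.0 and limma 3.58.1 as alternatives. The route was fitted with the drug as covariate over 23 tumors. Differences within a drug group came from a model of 8 groups, which shared 1 estimate of the spread, and the variation of the route difference with the drug from its interaction term. All tests were two-sided. Library measures were compared by exact permutation within drug groups (33750 arrangements). CPM were computed from TMM-scaled library sizes, with a prior count of 2 for log2 CPM. The study's methods name DESeq2 for differential expression.

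Tool versions of the read processing follow the submitters' processing notes. The members, the 46 gene lists (17 of them cell type or tissue markers) and the tests were chosen with earlier results of these data known. Named genes were the 10 with the smallest p in each direction by route, the 5 in each direction in the controls, called members of the lists or the pair with the smallest p, each list's most abundant member, and 10 fixed genes. Lists that are only summarised have members left unnamed. Some called genes are not reported here by name. The labels do not say whether each tumor came from its own mouse, so p-values measure the spread between these tumors. Pairs of tumors of a group differed by more than sampling noise (chi-square per degree of freedom 8.09 to 64.6). The floor of 3 counts equals 0.448 to 1.05 CPM and covers counting error only, since amplified reads are not independent molecules.

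The model was tested on simulated counts. A single data set was drawn per effect size, with the same mean in every drug group and no difference by drug or sex. The recovery therefore holds for that simpler setting. For the drug-adjusted comparison, 123 of 196 genes changed by 1 on the log2 scale were recovered with 7 unchanged genes called, and 174 of 198 changed by 2 with 6 called. For the control comparison, 7 of 196 and 115 of 198 were recovered. With no change simulated, both called 0 genes. Alternatives were other scalings, no filter, protein-coding genes alone, limma-voom, other thresholds, Xist as a covariate, other sets of tumors and each tumor left out. The fit of the CONTROL and MIX tumors alone, the share of counts on ribosomal RNA as a covariate and the common depth were added after seeing the data.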

Additional observations from a re-analysis of the deposited data

Results flagged for a closer look

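In groups of 4 tumors, 264 checks for a tumor far from the other 3 (Dixon's ratio) gave 12 hits, where chance gives about 1 in 20. MIX_IT replicate 23 had 5.83 CPM of Vps33b against 10.7 to 11.6 CPM in the other tumors of its group. CONTROL_IT replicate 10 had 6.13 CPM of Wfs1 against 9.83 to 10.6 CPM, 70.1 CPM of Trim8 against 39.9 to 41.9 CPM, and 0.219 CPM of Krt5 against 0 in the others. NCTD_IT replicate 20 had 3415 CPM of Tyrp1 against 2229 to 2382 CPM and 90.1 CPM of Rapgef4 against 79.8 to 80.9 CPM. NCTD_IT replicate 17 had 58.4 CPM of Kif3a against 49.3 to 50.2 CPM, and NCTD_IT replicate 18 had 0.294 CPM of Ddx3y against 0. CONTROL_IT replicate 12 had 986 CPM of Rpl36-ps2 against 802 to 828 CPM and 0.283 CPM of Hoxc8 against 0. MIX_IT replicate 22 had 35.4 CPM of Igip against 26.2 to 27.0 CPM. In NCTD_IT replicate 19 the 100 most abundant genes took 25.0% of the counts against 27.3% in each of the other 3 tumors. For Krt5, Hoxc8 and Ddx3y the flagged value was 1 count against 0, below the floor of 3 counts. A single count beside 0 in the other tumors is always flagged, so these hits carry no information. The part of the flagged tumors in the route differences was tested only by leaving each out in turn.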

How the results depend on the processing

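No paired analysis was possible because no replicate number occurs in more than 1 group. The number of genes called by route, 49 (32 higher, 17 lower), was 283 (184, 99) with DESeq2, 299 (173, 126) with limma-voom and sample weights, 400 (191, 209) with no filter on low counts, 99 (73, 26) with equal weight to each drug, 110 (76, 34) in the tumors given a drug alone, 32 (15, 17) with library totals alone, 23 (18, 5) with no drug covariate, 25 (17, 8) with the percent of counts on rRNA genes as a covariate, 1 (1, 0) with Xist as a covariate and 1 (1, 0) in the CONTROL and MIX tumors alone. At an adjusted p below 0.01 it was 8 (7, 1) and at a log2 difference of at least 1 it was 4 (2, 2). DESeq2 size factors gave 49 and protein-coding genes alone 57. Leaving out each tumor in turn gave 1 to 78 genes (1 to 52 higher, 0 to 27 lower). The controls, with 0 calls, gave 3 with DESeq2 (3 higher), 152 with no filter (41 higher, 111 lower), 2 with limma-voom (2 higher), 1 with Xist as a covariate (1 higher) and 0 to 1 with a tumor left out, the 1 being Gm10076 without NCTD_IT replicate 19 (adjusted p = 0.0453, edgeR). DESeq2 gave 4 calls for PTX, 73 for NCTD, 131 for MIX and 6 for the variation with the drug, and leaving out a tumor gave 0 to 2 for NCTD and 0 to 19 for MIX. The cause of these changes was not tested. The only named difference that reversed was that of Ddx3y, 0.38 in the CONTROL and MIX tumors alone. The difference in genes detected was -942 to -645 with a tumor left out (exact permutation p 0.00116 to 0.0172). Depth limits genes near 3 counts, such as Scand1 in the IP tumors, and 2 tumors per IP group limit every comparison within a drug.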

Other observations

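Other lists held no called gene by route. Of 10 tested T cell genes 8 had a negative log2 difference (median -0.22), of 9 NK and cytotoxic genes 7 a positive one (0.15), of 6 dendritic cell genes 5 a negative one (-0.31), and of 3 B and plasma cell genes 2 a negative one (-0.22). In the controls alone these medians were -1.43, -1.23, -1.88 and -1.36. At an unadjusted p below 0.05 there, 1 of the T cell genes and 1 of the dendritic cell genes were lower. Of all 13395 genes 352 were (edgeR). In the same order the medians were 0.58, 0.69, -0.05 and -0.76 with PTX. With NCTD they were 0.32, 0.92, 0.69 and 0.68, and with MIX -0.15, 0.30, 0.20 and 0.42. Of 9 MHC class I genes 6 were negative (-0.29), and of 6 interferon-inducible chemokines 4 (-0.37). The medians of these lists were -0.53 and -0.73 in the controls and -0.34 and -0.54 with MIX. They were 0.06 and 0.09 with PTX and 0.06 and 0.15 with NCTD. The 15 inflammatory cytokines and chemokines had a median of 0.03 over all drugs and 1.76 with NCTD. Their summed level was 2922 CPM in NCTD_IT replicate 18, the tumor with the highest neutrophil sum, against 419 to 859 CPM in the other NCTD_IT tumors, and Cxcl2, a neutrophil attractant, was at 1270 CPM there against 37.9 to 79.2 CPM. The part of that tumor in the NCTD median was not tested. Of 12 wound response and clotting genes 7 were negative (-0.09).

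Of 7 pericyte and smooth muscle genes 6 were positive (median 0.54). The most abundant, Mylk, was negative (-0.45), and the median summed level was 273 CPM in IP and 252 CPM in IT tumors. All 4 tested erythroid genes (0.67), both adipocyte genes (0.56) and the 1 tested platelet gene (0.12) were positive. All 6 tested skeletal muscle genes were negative (-0.52). These medians changed sign between drug groups. In the controls, PTX, NCTD and MIX the erythroid median was 1.74, 1.06, -0.96 and 1.44. For adipocyte genes it was -0.79, -0.82, 3.93 and 3.78, and for skeletal muscle -1.98, -0.37, 0.02 and 0.28. The platelet gene was negative with NCTD (-0.47). The 14 genes of ER stress had a median of 0.06, the 7 glucocorticoid response and metallothionein genes -0.06, the 14 p53 targets 0.08, and the 9 clock genes 0.05. The 13 protein genes of the mitochondrial genome had a median of 0.07, and in the controls -0.62 with 9 lower at an unadjusted p below 0.05. Of all 13395 genes, 352 were lower in the controls at that threshold (edgeR). All 7 tested satellite-containing gene models were positive (0.68). The 4 tested sex-linked genes had a median of -1.26.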
